A study of Mus musculus with 8 samples.

Results

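The acinar enzyme and identity genes are 39 genes that the exocrine acinar cells of the pancreas express for digestion or use to keep their identity. They were taken by symbol from the deposited gene count table, where all 39 were among the 32531 rows, and all 39 passed the filter on low counts that left 15082 genes for testing. RNA was sequenced from islets of 8 mice. The 4 controls were RIP-Cre+, Rosa26-rtTA+, tetO_NICD- and the 4 β-tetO-NICD mice, here called NICD, were RIP-Cre+, Rosa26-rtTA+, tetO_NICD+, so both groups carried the Cre and the rtTA, and both drank doxycycline (Dox) for 8 weeks. All were on a mixed C57BL/6J, 129X1/SvJ, BALB/c background, and the labels give no age. The insulin promoter of RIP-Cre directs recombination to β cells, after which Dox turns on the NICD transgene, the active intracellular part of the Notch1 receptor; acinar cells are not the cells the Cre is aimed at. Islets were freed by collagenase digestion of whole pancreas and a density gradient, which can carry acinar tissue along. The comparisons ask how much of each islet library the acinar genes took, whether they moved together, and whether any differed between the groups.

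Acinar cells make the digestive juice of the pancreas. They store amylase, lipases and the inactive precursors of proteases in zymogen granules and release them when cholecystokinin or nerves stimulate them. The program is held by a small set of transcription factors, with the PTF1 complex at its centre, in which the basic helix-loop-helix protein Ptf1a and a partner bind an E-box while Rbpj or its acinar form Rbpjl binds the neighbouring TC-box. Rbpj is also the DNA-binding partner of NICD. A healthy islet does not make digestive enzymes, and in a bulk islet library fewer acinar cells and less acinar RNA per cell cannot be told apart.

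Promoter sequence around the RefSeq start was at hand for 30 of the 39 genes (build GRCm38.p6, 250 bases before to 50 after the start). The TC-box word TGGGAA, searched on both strands, was in 17 of them (56.7%) and in 28.3% of the windows of 27025 genes. The E-box word CANCTG was in 25 (83.3%) against 54.6%. Both words with starts within 40 bases were in 9 (30%) against 6.16%, namely Cel, Rbpjl, Cela3a, Cpa1, Prss1, Klk1, Ctrl, Ctrb1 and Pnliprp1. A match is a description of these letters and does not show binding. The first 195 bases of 4 windows are shown because 3 of them hold the pair and the fourth belongs to Bhlha15, the acinar factor that departed furthest from the enzymes. Either word is in capitals, and the sequences are from chr2:28563459-28563653 (minus strand), chr2:164402944-164403138 (plus), chr8:111691066-111691260 (minus) and chr5:144190036-144190230 (plus), in that order.
Cel: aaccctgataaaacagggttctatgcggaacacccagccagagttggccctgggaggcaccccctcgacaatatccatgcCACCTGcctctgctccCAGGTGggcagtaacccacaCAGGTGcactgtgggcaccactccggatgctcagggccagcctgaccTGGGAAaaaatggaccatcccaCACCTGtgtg
Rbpjl: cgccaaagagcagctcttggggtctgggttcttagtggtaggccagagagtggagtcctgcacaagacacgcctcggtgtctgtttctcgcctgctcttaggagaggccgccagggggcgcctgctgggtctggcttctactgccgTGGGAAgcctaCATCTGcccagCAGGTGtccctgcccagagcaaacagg
Ctrb1: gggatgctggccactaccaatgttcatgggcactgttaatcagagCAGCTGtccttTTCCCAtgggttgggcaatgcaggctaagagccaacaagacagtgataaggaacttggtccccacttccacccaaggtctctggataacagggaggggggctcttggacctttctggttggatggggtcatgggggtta
Bhlha15: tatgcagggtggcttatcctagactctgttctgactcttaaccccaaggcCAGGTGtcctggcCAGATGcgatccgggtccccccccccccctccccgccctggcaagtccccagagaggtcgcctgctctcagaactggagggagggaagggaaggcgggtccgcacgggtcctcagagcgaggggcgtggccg

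Several members are near copies, and the count given to each depends on how shared reads were divided. The 6 trypsinogens lie together on chromosome 6 (GRCm38), between 41302269 in Try4 and 41525079 in Prss2, and each has a coding sequence of 738 bases. Over that length Try5 was 97.4% identical to Try4, Try10 95.4%, Prss1 93.5%, Prss3 92.5% and Prss2 91.7%. The first 60 coding bases, from the GENCODE M21 transcripts, show how little separates them, with bases that differ from Try4 in capitals.
Try4: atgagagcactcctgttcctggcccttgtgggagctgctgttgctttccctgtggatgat
Try5: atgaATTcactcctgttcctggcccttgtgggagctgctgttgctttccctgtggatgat
Try10: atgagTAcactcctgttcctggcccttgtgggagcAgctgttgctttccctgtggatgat
Prss1: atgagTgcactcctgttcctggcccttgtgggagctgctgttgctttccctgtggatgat
Prss2: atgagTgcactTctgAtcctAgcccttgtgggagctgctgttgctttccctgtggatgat
Prss3: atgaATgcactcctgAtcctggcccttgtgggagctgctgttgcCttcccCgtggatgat

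Of the words of 31 bases in its transcripts, Try4 shared 82.8% with other genes and Prss2 22.6%, so Prss2 is the trypsinogen whose counts are least open to division. Amy2a5 on chromosome 3 shared 62.3%, mostly with Amy2a2, and Amy2b 60.4%. Levels of these genes are given below as the deposited counts have them.

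The libraries held 21701223 to 26413146 counts. Notch1, whose intracellular part the transgene encodes, had 1051 to 1562 counts in controls and 11388 to 36628 in NICD islets. Ins1 and Ins2 together took 14.95% to 17.3% of the counts in controls and 6.16% to 13.9% in NICD islets, so islet hormone RNA was abundant in every library. Eif2s3y, a Y-linked gene, was seen in controls 2 and 4 and NICD library 5 (1300 to 1527 counts). It was at no more than 1 count in the rest, controls 1 and 3 and NICD libraries 1, 2 and 4. The paper states that gene expression work used islets of males, and why these libraries lacked the Y-linked RNA was not tested. The NICD columns are numbered 1, 2, 4 and 5, and the mice behind 4 and 5 are not settled by the labels beyond their group. The p values below measure the spread between these libraries, 1 per mouse.

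Acinar genes took a large and uneven part of every islet library. They made up 14.6% of the counts in control 1, 8.16% in control 2, 8.10% in control 3 and 8.20% in control 4. In NICD islets they made up 20.9%, 10.7%, 7.22% and 12.3% of libraries 1, 2, 4 and 5. The 95% Wilson interval on the highest share ran from 20.88% to 20.91%, and it covers counting error only. Controls 2 to 4 were nearly equal, control 1 stood above them, and the NICD libraries held both the lowest and the highest share. The mean was 9.77% ± 3.23 (SD, n = 4) in controls and 12.8% ± 5.81 (SD, n = 4) in NICD islets, and the highest share was 2.90-fold the lowest. On the log2 scale the groups differed by 0.33, which is less than the pooled SD of 0.54. The difference was 0.062 without NICD library 1, 0.57 without library 4, and 0.54 without control 1.

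**Figure D1:**
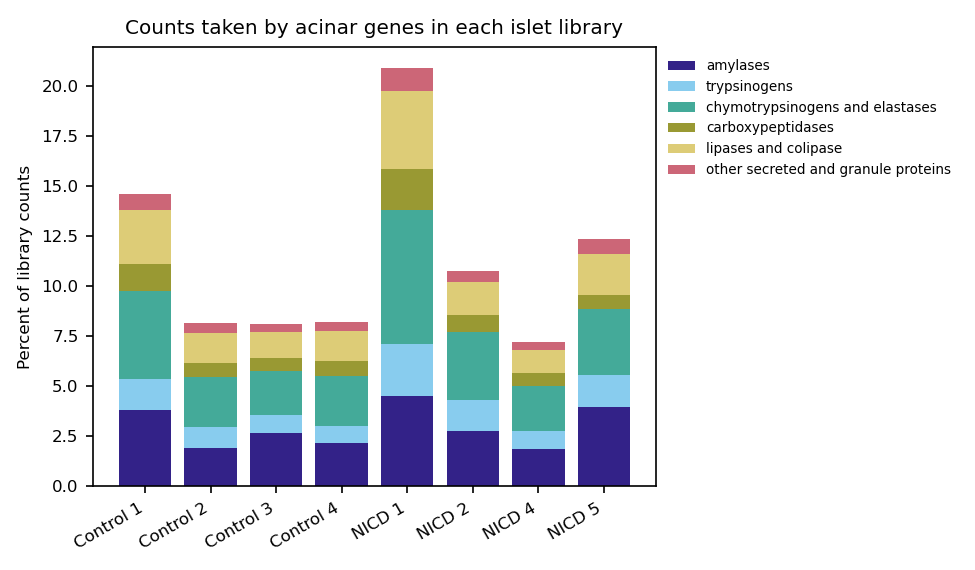
Percent of each library's counts (vertical axis, from 0) taken by the acinar genes in the 4 control and 4 NICD (NICD) libraries, stacked by class; transcription factors and the receptor Cckar are too low to draw. Control 1 reached 14.6% and NICD 1 20.9%, and the other 6 libraries lay between 7.22% and 12.3%.

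Leaving the hormone counts out kept the 4 highest libraries and the lowest in the same order. Outside the islet hormones the acinar share was 18%, 10.3%, 10.7% and 10.2% in controls 1 to 4 and 24.2%, 13.6%, 8.85% and 15.9% in NICD libraries 1, 2, 4 and 5. NICD library 1, with the most acinar RNA, also had the least insulin RNA (6.16% of counts). Summed duct markers, by contrast, were at 551 CPM (counts scaled to library size) in that library and 615 CPM in control 1, within the 486 to 1019.6 CPM of all 8 libraries. Gcg, the glucagon gene of α cells, was at 22653 ± 12856 CPM in controls, lowest in control 1 with 245382 counts, and at 61254 ± 6192 CPM across the NICD group (SD, n = 4 each; adjusted p = 0.0622, edgeR). The part of these other cell types in the acinar values was not tested.

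The mix of enzymes was similar across libraries while the total moved. Chymotrypsinogens and elastases, which cut proteins at aromatic, bulky or small residues, were 29.5% ± 1.68 of the acinar counts in controls and 30.4% ± 2.33 in NICD islets (SD, n = 4 each). The 3 amylases among the members, which digest starch, were 27.2% ± 3.97 and 26.3% ± 4.27, and the lipases with their cofactor colipase 17.7% ± 1.05 and 16.8% ± 1.35. Carboxypeptidases, which trim proteins from the carboxyl end, were 8.89% ± 0.554 and 7.97% ± 1.74, with 5.63% in NICD library 5 as the lowest. Trypsinogens, the precursors of the protease that activates the others, were 11.2% ± 0.912 of acinar counts in controls and 13.1% ± 0.972 in NICD islets. Their 4 NICD values ran from 12.4% to 14.5% and overlapped only with control 2 at 12.6%, the other controls being at 10.7% to 10.9%. The 5 transcription factors together made up at most 0.0915% of acinar counts.

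No acinar gene passed the threshold between the groups. In the quasi-likelihood test of edgeR, adjusted over all genes by Benjamini-Hochberg, 0 of 39 had an adjusted p under 0.05, where 6.76% of all tested genes did. Cela3a and Bhlha15 had an unadjusted p under 0.05, so 2 of 39, against 31.6% of all genes. In none of the 39 did the 4 libraries of one group lie wholly above the other 4, which was so for 16.1% of all genes. The fitted log2 fold change, NICD over control, was above 0 in 35 of 39 with a median of 0.36, against 50% of all tested genes and a median of 0.00071. That median followed single libraries, as it was 0.045 with 20 of 39 positive without NICD library 1 and 0.69 with 38 positive without control 1. It was also 0.57 without NICD library 4, and 0.19 with 27 positive in the 5 libraries lacking Eif2s3y. With an offset for transcript length, described below, it was 0.054 with 28 positive. DESeq2, which called 18.2% of all genes, called 1 member, Bhlha15, and limma-voom, which called 7.18%, called no member, with a lowest adjusted p of 0.0894.

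**Figure D2:**
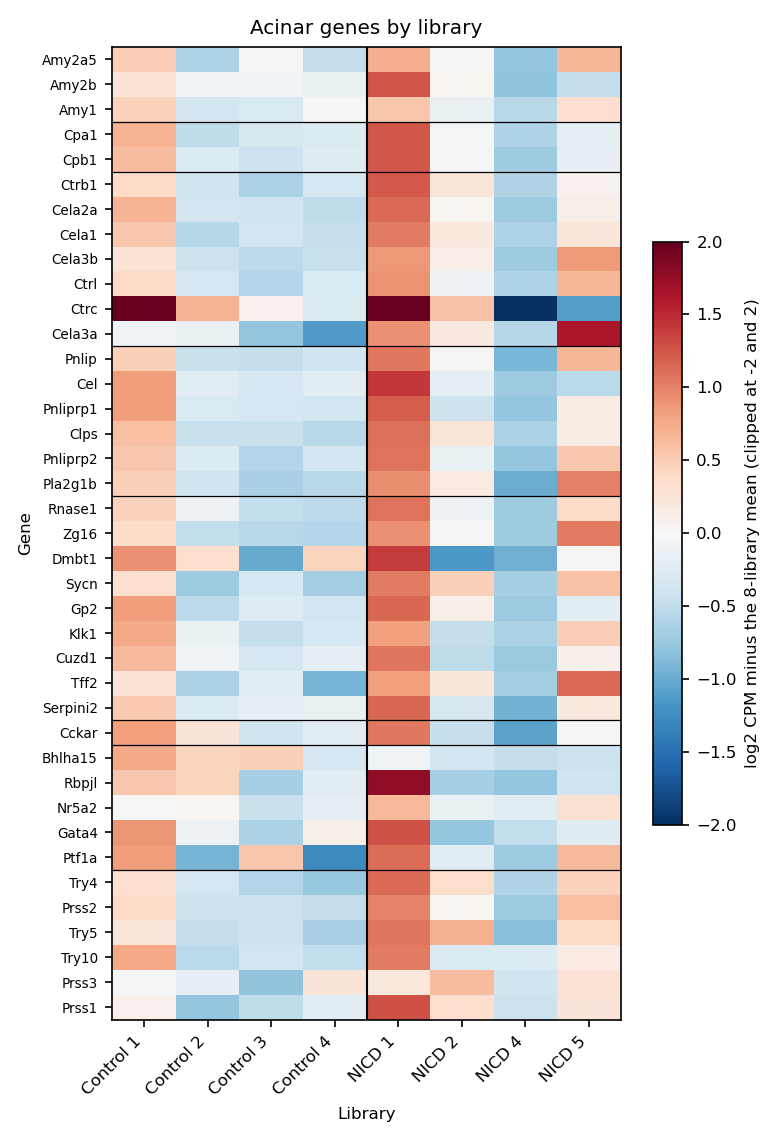
Log2 CPM of each of the 39 acinar genes (rows, by class from amylases at the top to trypsinogens at the bottom) in each library (columns, 4 control and 4 NICD), as the difference from the gene's mean over 8 libraries; red is higher, blue lower, clipped at -2 and 2. The columns for Control 1 and NICD 1 are red in most rows and that for NICD 4 is blue, while Ctrc, Dmbt1 and Bhlha15 depart from the common pattern.

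The same few libraries set the level of nearly every gene. Control 1 was the highest control for 37 of 39 genes, and NICD library 1 was the highest of its group for 34 and the highest of all 8 for 33. NICD library 4 was the lowest of all 8 for 27. Both libraries numbered 1 lay above all other 6 for 23 of the 39.

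Amy2a5, a pancreatic amylase, took the most counts of any member. It was at 39299, 18219.9, 27269.5 and 20197 CPM in controls 1 to 4 and at 46366, 28359, 16302 and 44224 CPM in NICD libraries 1, 2, 4 and 5. Control 1 and NICD libraries 1 and 5 were high, and the groups overlapped. Its log2 fold change was 0.37 (SE 0.41, adjusted p = 0.541, edgeR), and -0.14 in the 5 libraries lacking Eif2s3y. The salivary and liver amylase Amy1 stayed at 8.60 to 18.6 CPM and Amy2b, annotated in GENCODE M21 as an unprocessed pseudogene, at 58.6 to 245 CPM, with log2 fold changes of 0.12 and 0.23. Without NICD library 1 these were -0.062 and -0.38.

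The amylase gene cluster on chromosome 3 holds further copies beside Amy2a5. Amy2a2, Amy2a3 and Amy2a4 had identical counts in every library, from 68762 to 108176. Amy2a1 had 275985, 140943, 115751 and 196883 counts in controls 1 to 4 and 291445, 57280, 75228 and 0 in NICD libraries 1, 2, 4 and 5. The library with 0 counts of Amy2a1 gave Amy2a5 its largest part of the Amy2a counts, 80.5%, against 51.9% to 68.6% in the other libraries. How reads were divided among these copies was not tested. Amy2a1 to Amy2a4 were not among the 39, so the amylase share above leaves them out. Amy2a1 to Amy2a5 together took 6.44%, 3.63%, 4.27% and 4.10% of all counts in controls 1 to 4 and 7.34%, 3.996%, 2.93% and 4.89% in NICD libraries 1, 2, 4 and 5. That was above the chymotrypsinogens and elastases, at 2.19% to 6.69%, in each of the 8 libraries.

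Trypsinogens were all fitted higher in NICD islets and none passed the test. Prss3 turned negative with transcript length offset (-0.26), and Try10 turned negative with that offset (-0.093), without NICD library 1 (-0.069) and in the 5 libraries lacking Eif2s3y (-0.010). Prss2 was at 6049, 3447, 3394 and 3287 CPM in controls 1 to 4 and at 9119, 4706, 2749 and 6957 CPM in NICD libraries 1, 2, 4 and 5. Library 4 was below every control, so the groups overlapped. The log2 fold change was 0.54 (SE 0.38, adjusted p = 0.333, edgeR). Try4 was at 3206 to 6792 CPM in controls and 3567.5 to 11871 CPM in NICD islets (log2 fold change 0.74, SE 0.38), and Try5 at 1707 to 3161 and 1493 to 5608 CPM (0.77, SE 0.38). Prss1, Prss3 and Try10 were far lower, none above 133 CPM. Over the 6 genes the median log2 fold change was 0.64, beside 0.36 for all 39. With the length offset it was 0.17, with Try4 at 0.27, Try5 at 0.29 and Prss2 at 0.057.

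Per kilobase of the transcript length used, the chymotrypsinogen Ctrb1 and the elastase Cela2a held the highest levels. Averaged over the 8 libraries, Ctrb1 (chymotrypsinogen B) was at 13102 CPM per kilobase, Cela2a at 8886, Amy2a5 at 8083, Try4 at 7427, Cela1 at 6607.5 and Pnlip at 6554. Cela3b, Ctrl, Ctrc and Cela3a were lower, at 3336, 2606, 832.5 and 1.11. The length used was 3715 bases for Amy2a5 and 1577 for its near copy Amy2b, and the order depends on these lengths. Ctrb1 was at 13795, 7951, 6794 and 8338 CPM in controls 1 to 4 and 24577, 12470, 6917 and 11186 CPM in NICD libraries 1, 2, 4 and 5. Library 4 fell among the lower controls, and the log2 fold change was 0.58 (SE 0.41, adjusted p = 0.331, edgeR). The elastase Cela2a was at 13891, 6743, 6585 and 6104 CPM in controls and 19059, 9033, 5230 and 9417 CPM in NICD islets, again with library 1 highest and library 4 lowest of all. Its log2 fold change was 0.36 (SE 0.43), and that of Cela1 was 0.47 (SE 0.39, adjusted p = 0.405, edgeR). Without NICD library 1 these were -0.075 and 0.13. With transcript length offset they were 0.0035 and 0.10, and that of Ctrb1 was 0.18.

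Cela3a had a fitted log2 fold change of 1.21 (SE 0.49, adjusted p = 0.132, edgeR), which was 0.76 without NICD library 5 and 0.63 with transcript length offset. It was at 0.830, 0.802, 0.514 and 0.406 CPM in controls 1 to 4 and at 1.66, 1.004, 0.598 and 2.72 CPM in NICD libraries 1, 2, 4 and 5. The groups overlapped through library 4. The level was very low, and 45.8% of its words of 31 bases are shared with another gene, while the near copy Cela3b was at 1742 to 5175 CPM.

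Among the lipases, pancreatic lipase (Pnlip), which splits dietary triglycerides, was at 12318, 6508, 6377 and 6742 CPM in controls 1 to 4 and 18319, 8971, 4716 and 14017 CPM in NICD libraries 1, 2, 4 and 5. Libraries 1 and 5 were above every control and library 4 below every one. The log2 fold change was 0.53 (SE 0.42, adjusted p = 0.394, edgeR). Colipase (Clps), the protein that anchors lipase to fat droplets, had 0.47 (SE 0.39) and the phospholipase Pla2g1b 0.68 (SE 0.42). With transcript length offset Pnlip had 0.21, Clps -0.013 and Pla2g1b 0.020. Cel, the bile salt-activated lipase, had 0.18 (SE 0.50) and fell to -0.56 without NICD library 1, in which it was at 9880 CPM against 2230 to 3239 in the rest of the group. The carboxypeptidases Cpa1 and Cpb1 had 0.30 each (SE 0.44 and 0.43), and both turned negative without that library, at -0.24 and -0.25.

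The remaining secreted proteins include the granule proteins Sycn (syncollin), Zg16 and Gp2, the ribonuclease Rnase1, the kallikrein Klk1 and the mucosal proteins Tff2 and Dmbt1. Of the 9, 8 were fitted higher in NICD islets, of which Gp2, Klk1, Cuzd1 and Serpini2 turned negative without NICD library 1 and in other alternatives tried, and none passed the test, with a median log2 fold change of 0.23. Tff2 had 0.83 (SE 0.38), Sycn 0.77 (SE 0.37) and Zg16 0.74 (SE 0.39), with adjusted p values of 0.168, 0.176 and 0.217 by edgeR. With transcript length offset these were 0.18, 0.21 and 0.15. Dmbt1 was at 1396, 941, 368 and 1015 CPM in controls 1 to 4 and 1952, 334, 381 and 753 CPM in NICD libraries 1, 2, 4 and 5. Unlike most members it was low in control 3 and in library 2 as well as in library 4, and its log2 fold change was -0.12 (SE 0.58).

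**Figure D3:**
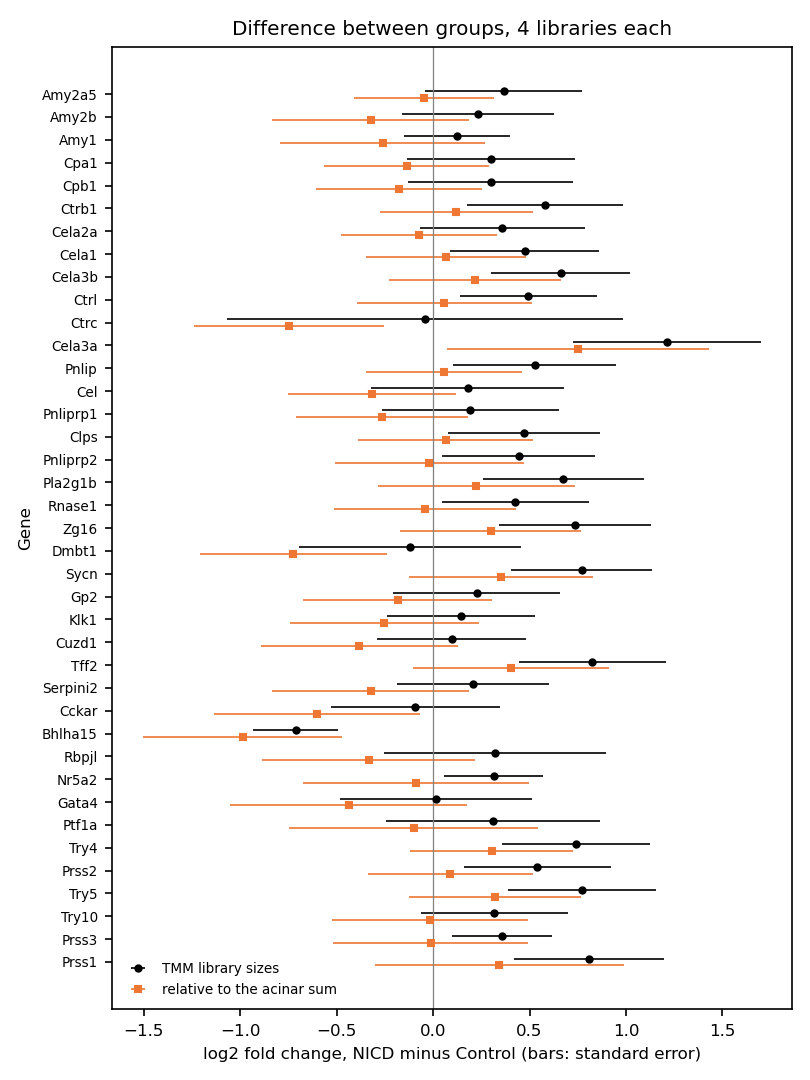
Log2 fold change, NICD (NICD) over control, of each acinar gene with its standard error (bars; edgeR, 4 libraries a group), with TMM library sizes (black circles) and with the summed acinar counts as library size (orange squares). The black circles lie above 0 for 35 of 39 genes and the orange squares for 15 of 39, and no gene passed the threshold on either scale.

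To ask whether any gene differed beyond the amount of acinar RNA, the fit was repeated with the summed counts of the 39 genes as library size. On that scale 0 of 39 genes passed the threshold by edgeR's quasi-likelihood test, where 2.60% of all genes did, and no member had an unadjusted p under 0.05. The median log2 fold change of the members was -0.048 and 15 were above 0, whereas the median of all tested genes moved to -0.29. The highest members were Cela3a (0.75), Tff2 (0.40), Sycn (0.35) and Prss1 (0.34), and the lowest Bhlha15 (-0.99), Ctrc (-0.75), Dmbt1 (-0.73) and Cckar (-0.60). The limma-voom fit called 3.56% of all genes and no member on this scale, with a lowest adjusted p of 0.0710. Standard errors in this fit are drawn toward the spread of all genes, whose median SD of the log2 ratio to the acinar sum was 0.71, against 0.27 for the members.

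Members followed each other closely across libraries. Over the 741 pairs of genes the median Spearman rho of log2 CPM over 8 libraries was 0.738, 282 pairs had a rho of at least 0.8, and 5 were negative. Among the 33 secreted proteins the median was 0.786 over 528 pairs with none negative. This is a description over 8 shared libraries, not 741 independent values. Centring each group on its own mean left the median at 0.738. Without both libraries numbered 1, which had the largest acinar shares, it was 0.486, so the agreement among the other 6 libraries was weaker. This exclusion was chosen after their shares were seen.

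The tightness of a gene was also described by the SD, over 8 libraries, of its log2 ratio to the acinar sum. Cela1 had the smallest SD, 0.095, and held between 5.79% and 6.95% of the acinar counts, followed by Prss2 (0.10), Pnlip (0.13) and Cela2a (0.13). Of the 39 genes, 26 had an SD under 0.35. Among 12754 genes with a mean of at least 50 counts, 25 of the first 50 were members, although each member is part of the sum it is compared with. Genes outside the list with a small SD included Erp27 (0.13), Pdia2 (0.17), Gjb1 (0.19) and 2210010C04Rik (0.20). Erp27 and Pdia2 are protein-folding proteins of the endoplasmic reticulum and Gjb1 is the gap junction protein connexin 32.

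**Figure D4:**
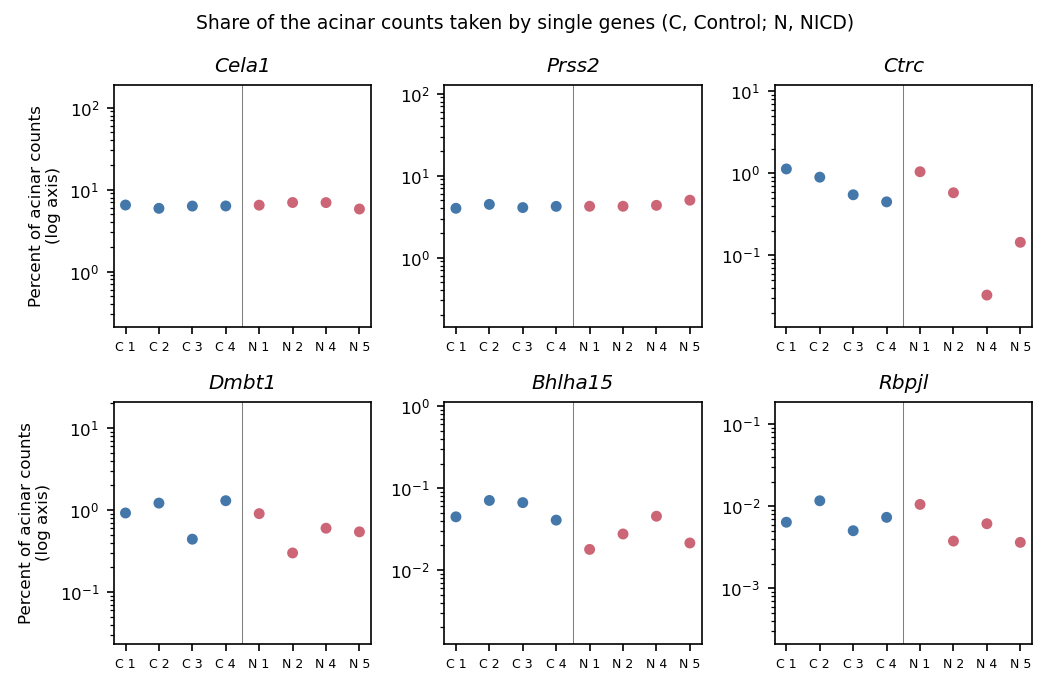
Percent of the acinar counts taken by 6 single genes (vertical log axes, each spanning the same fold range) in the 4 control (C, blue) and 4 NICD (N, red) libraries. Cela1 and Prss2 stayed level, Ctrc ran over a 34.6-fold range with NICD 4 and NICD 5 lowest, and Dmbt1, Bhlha15 and Rbpjl varied between these extremes.

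Ctrc was the clear exception among the enzymes. It encodes chymotrypsin C, a protease that controls trypsinogen activation and breakdown. It had 37134, 16426, 11521 and 8621 counts in controls 1 to 4 and 47487, 14754, 624 and 3966 counts in NICD libraries 1, 2, 4 and 5. In CPM these were 1713, 694, 456 and 350 in controls and 2257, 644, 20.7 and 200 in NICD islets, so libraries 4 and 5 were below all controls while library 1 was above them. The SD of its log2 ratio to the acinar sum was 1.74, the largest of the 39, and its share of that sum ranged over 34.6-fold, where the next widest was 4.34-fold in Dmbt1. Relative to Ctrl, another chymotrypsin-like protease of the same cells, Ctrc stood at 61.3%, 41.7%, 32.1% and 20.2% in controls 1 to 4 and at 56.7%, 32.3%, 1.49% and 5.95% in NICD libraries 1, 2, 4 and 5. Ctrl itself held 1388 to 3981 CPM throughout.

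Between the groups Ctrc did not pass the test, with a log2 fold change of -0.041 (SE 1.03, adjusted p = 0.982, edgeR) and of -0.75 (adjusted p = 0.571) relative to the acinar sum, where limma-voom gave -1.65 with an adjusted p of 0.0710. Without NICD library 1 the edgeR value was -1.59 with an adjusted p of 0.0223, and 3.52% of all genes passed. Without both libraries numbered 1 it was -1.32 with an adjusted p of 0.0175, and 8.1% passed. With the replicate number as a block it was -1.44 with an adjusted p of 0.00612 by edgeR, and 1114 of 15082 tested genes passed. On chromosome 4, GENCODE M21 gives Ctrc (141814962 to 141846359, minus strand) and Cela2a (141814962 to 141826160, minus strand) a common end, since a Ctrc transcript runs through Cela2a, and 19.8% of the words of Ctrc occur in other genes. Ctrc relative to Cela2a was 5.73% to 12.3% in controls and 11.8%, 7.13%, 0.396% and 2.12% in NICD libraries 1, 2, 4 and 5. Cela2a held 6.797% to 9.18% of the acinar counts in all 8 libraries, with 8.27% in library 4 and 6.797% in library 5.

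The transcription factors were far lower than the enzymes and followed them less closely. Their median rho with the secreted members was 0.595 over 165 pairs. Ptf1a, the bHLH subunit of PTF1, was at 2.44, 0.718, 2.02 and 0.568 CPM in controls 1 to 4 and 2.99, 1.18, 0.830 and 2.17 CPM in NICD libraries 1, 2, 4 and 5. Its low counts still put control 1 and library 1 highest in their groups, with a median rho of 0.714 with the secreted members and a log2 fold change of 0.31 (SE 0.55). That fold change was -0.055 without NICD library 1 and -0.44 in the 5 libraries lacking Eif2s3y. Rbpjl was at 9.69, 9.04, 4.19 and 5.72 CPM in controls and 22.8, 4.19, 3.89 and 5.04 CPM in NICD islets, so that only library 1 stood out. Its log2 fold change of 0.32 (SE 0.58) became -0.71 without that library.

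Nr5a2, a nuclear receptor that supports the acinar program, was the steadiest factor. It was at 3.92, 4.01, 2.85 and 3.45 CPM in controls 1 to 4 and 6.08, 3.49, 3.35 and 4.79 CPM in NICD libraries 1, 2, 4 and 5, with a log2 fold change of 0.31 (SE 0.26). Gata4, a zinc finger factor of pancreas development, was at 4.43, 2.20, 1.54 and 2.60 CPM in controls and 5.80, 1.40, 1.69 and 2.02 CPM in NICD islets (log2 fold change 0.016, SE 0.50). Cckar, the cholecystokinin receptor that triggers enzyme release, had 9.65 to 22.6 CPM in controls and 6.04 to 26.5 in NICD islets (log2 fold change -0.092, SE 0.44). For Gata4 and Cckar too the highest library of each group was number 1.

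Bhlha15, also called Mist1, is a factor that builds the secretory apparatus of acinar cells. It was at 67.7, 54.7, 55.5 and 31.8 CPM in controls 1 to 4 and at 38.6, 30.7, 28.8 and 29.7 CPM in NICD libraries 1, 2, 4 and 5. Controls 1 to 3 were above every NICD library, and control 4 was within their range. The means were 52.4 ± 14.98 and 32.0 ± 4.49 CPM (SD, n = 4 each), and the log2 fold change of -0.71 (SE 0.22) had a p of 0.00917 and an adjusted p of 0.0756 by edgeR's quasi-likelihood test. It passed with DESeq2 (adjusted p = 0.0271), without NICD library 1 (-0.81, adjusted p = 0.0253, 33.2% of all genes past the threshold) and without control 4 (-0.89, adjusted p = 0.0260, 2.88%), and its adjusted p reached 0.194 when other libraries were left out. Relative to the acinar sum it passed only without NICD library 4 (-1.32, adjusted p = 0.0304, edgeR), where 17.1% of all genes did.

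Across all libraries Bhlha15 followed the enzymes least of the 5 factors. Its median rho with the 33 secreted members was 0.262, with 5 negative. Within each group library 1 was its highest, as for most members, and NICD library 4 was its lowest of all. In NICD library 1, where acinar genes took 20.9% of the counts, Bhlha15 was lower than in controls 2 and 3, where they took 8.16% and 8.10%. Rbpj, the Notch partner that can stand in for Rbpjl in PTF1, was at 31.04 ± 2.15 CPM in controls and 26.4 ± 2.67 CPM in NICD islets (SD, n = 4 each), with a log2 fold change of -0.23 (adjusted p = 0.240, edgeR).

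Acinar transcripts are short, and libraries differed in how they represented short transcripts. The median length was 1108 bases for the members and 3359 for the tested genes with a length (14655). Over all genes the deviation of a library rose with length in controls 1, 2 and 4 and NICD library 1 (Spearman rho 0.418, 0.467, 0.497 and 0.446). It fell with length in control 3 (-0.174) and NICD libraries 2, 4 and 5 (-0.521, -0.360 and -0.515). These are correlations across genes, which are not independent replicates. Within the 39 members the ratio to the acinar sum ran against length from 0.597 in control 4 to -0.718 in NICD library 2, with the sign seen over all genes in each library but control 3, where it was 0.205.

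**Figure D5:**
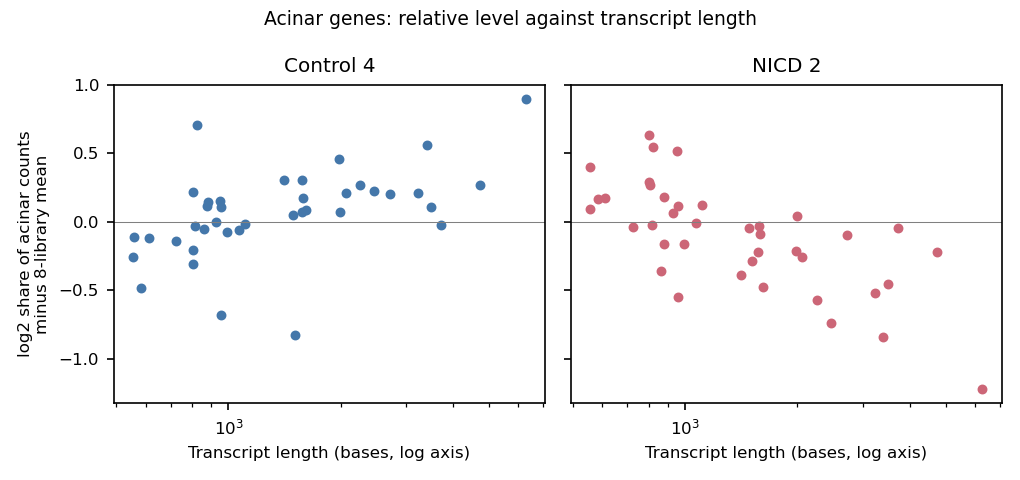
Log2 share of the acinar counts taken by each of the 39 genes, minus the gene's mean over 8 libraries (vertical axis), against transcript length in bases (horizontal log axis), in Control 4 (left, blue) and NICD 2 (right, red). Longer genes sit higher in Control 4 (Spearman rho 0.597) and lower in NICD 2 (-0.718).

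Taking this trend off changed the size of the group difference. With a per-library offset for length the members' median log2 fold change was 0.054 and 28 of 39 were above 0, against 0.36 and 35 without it. Relative to the acinar sum, the offset moved the median from -0.048 with 15 above 0 to -0.42 with 3 above 0, where all tested genes had a median of -0.28. That fit corrected each gene but not the sum used as library size, so it cannot show whether the mix of acinar genes changed. Among the abundant genes the log2 fold change went from 0.58 to 0.18 in Ctrb1, from 0.36 to 0.0035 in Cela2a and from 0.47 to 0.10 in Cela1, whereas Amy2a5, with a transcript of 3715 bases, went from 0.37 to 0.43. It went from 0.54 to 0.057 in Prss2, from 0.53 to 0.21 in Pnlip and from 0.68 to 0.020 in Pla2g1b. The log2 difference in acinar share was then 0.033 in place of 0.33. The number of members past the threshold remained 0, and 10.3% of tested genes then did in place of 6.76%.

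Of 25 further acinar genes listed beside the 39, 24 were in the table and 23 were tested. Their median log2 fold change was 0.55, 18 were above 0, 1 was higher in NICD islets and 1 lower by edgeR, where 4.19% and 2.57% of all genes were. The amino acid transporter Slc38a5 was at 13.0 ± 4.16 CPM in controls and 27.8 ± 3.59 CPM in NICD islets (SD, n = 4 each; log2 fold change 1.10, adjusted p = 0.0230). Gatm, the first enzyme of creatine synthesis, was at 118 ± 24.8 and 52.9 ± 14.2 CPM (log2 fold change -1.16, adjusted p = 0.0163). Relative to the acinar sum neither passed, with 0.72 (adjusted p = 0.627, edgeR) for Slc38a5 and -1.56 (adjusted p = 0.0812) for Gatm. Slc38a5 was lowest of all libraries in control 1 (183 counts), the control with the largest acinar share. Summed, the list was at 9144.5 CPM in control 1 and 14459.7 CPM in NICD library 1, the highest of each group, as for the 39.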

How the data were processed

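Poly(A) RNA of islets from 4 control and 4 β-tetO-NICD mice was sequenced as stranded libraries. The authors pseudoaligned reads with kallisto (named in the submitters' processing notes with build GRCm38; its version is not given in the sources used here) and deposited whole-number counts per gene symbol, not normalized. Their deposited comparison, made with limma, holds fold changes and p values and was not used. Columns were assigned to groups by name, and NICD columns 4 and 5 to the group only.

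Testing was limited to genes that reached 10 counts in 4 or more of the 8 libraries and used edgeR 4.0.16 (quasi-likelihood test, TMM, no covariate) in R 4.3.3, with Benjamini-Hochberg adjustment over all tested genes and a threshold of 0.05. Adjusted p values without a named tool come from edgeR. A second fit set each library size to the summed counts of the 39 members. CPM used TMM library sizes, log2 CPM a prior count of 2, and ratios to the acinar sum an added 0.5. No test was made over the list. Members, lists and tests were chosen with earlier results of these data known. Members were named in full by abundance, test result, role as transcription factor or tightness. Some genes and lists named by these rules are not reported here. The remaining lists covered beta, delta and PP cell, duct, endothelial, macrophage, stellate and blood markers. Duct, endothelial, stellate, blood and PP lists held 0 called genes of 9, 6, 6, 2 and 1. The delta list held 1 of 2 higher, macrophage 1 of 6 higher and beta 3 of 10 lower, where 4.19% of all tested genes were higher and 2.57% lower.

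Lengths, shared words of 31 bases and coding sequences came from GENCODE M21, and 97.2% of tested genes had a length. The alternatives were DESeq2 1.42.0, limma-voom (limma 3.58.1), other normalizations and filters, a length offset, the replicate block, the 5 libraries lacking Eif2s3y, and leaving out libraries. On simulated counts for 14917 genes, 200 of them changed, edgeR recovered 25% of 2-fold and 90% of 4-fold changes in the comparison of groups, and the fit relative to the acinar sum 13% and 89%. Of the calls there, 6.5% were false with edgeR and 26.2% with DESeq2. The simulation drew each gene independently and changed genes at random, so these rates do not describe recovery among the members, which moved together. Libraries of the same group, compared in pairs, all differed beyond sampling noise. With totals of at least 21701223, 3 counts correspond to at most 0.138 CPM.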

Additional observations from a re-analysis of the deposited data

Results flagged for a closer look

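Within each group of 4 libraries, the gap between the highest or lowest value and its nearest neighbour was divided by the whole range of the group and set against Dixon's 95% critical value for 4 samples. Of 80 groups of values tested, 19 were above it, where chance gives about 4, and the values are not independent because they come from the same libraries. Control 1 was the far library in 16 of the 19, always as the highest. Its quotient was 0.985 for the acinar share of counts (14.6% against 8.10% to 8.20% in the other controls). Among proteases and their precursors it was 0.868 for Cpa1, 0.877 for Cpb1, 0.872 for Cela1, 0.918 for Cela2a, 0.903 for Cela3b, 0.942 for Prss2 and 0.926 for Try10. Among lipases and their cofactor it was 0.925 for Cel, 0.939 for Pnlip, 0.965 for Pnliprp1, 0.933 for Clps and 0.836 for Pla2g1b. It was 0.922 for Zg16, 0.874 for Gp2 and 0.865 for Serpini2. NICD library 1 was far above its group for Cel (0.868), Rbpjl (0.939) and Gata4 (0.860).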

How the results depend on the processing

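Depth limits the lowest members, with 10 to 54 counts per library for Cela3a, 21 to 78 for Prss1 and 14 to 63 for Ptf1a. Genes past the threshold numbered 1020, and 2739 with DESeq2, 1554 with the length offset, 116 in the 5 libraries lacking Eif2s3y, and 3182 without both libraries numbered 1, an exclusion chosen after seeing the data. Leaving out each library in turn gave 319 (without NICD library 2) to 4954 (without library 1), with 496 without control 1, 503 without control 2, 430 without control 4, 374 without library 4 and 603 without library 5. The causes were not tested. Members past it numbered 0, with DESeq2 1, and 0 to 1 with a library left out. Relative to the acinar sum they numbered 0, and 1 (Ctrc) with the replicate block and without both libraries numbered 1, and 0 to 1 with a library left out, where Ctrc passed without library 1 and Bhlha15 (-1.32, adjusted p = 0.0304) without library 4. Median agreement between members was 0.738, 0.643 to 0.786 with a library left out, and 0.486 without both libraries numbered 1. The log2 difference in acinar share was 0.062 to 0.57 with a library left out.

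The replicate number was tried as a block over numbers 1, 2 and all other libraries. Deviations of same-numbered libraries correlated at 0.276 (number 1) and -0.09 (number 2). Those of control 1 with NICD library 2 correlated at -0.09, and of control 2 with NICD library 1 at 0.163. Whether same-numbered libraries share more than a number was not tested. The block gave 970 genes and 0 members, and relative to the acinar sum 1114 genes and 1 member, Ctrc (-1.44, adjusted p = 0.00612 by edgeR).

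Changes of sign of log2 fold changes, none past the threshold in either setting, were as follows. The length offset gave Amy1 -0.10, Prss3 -0.26, Try10 -0.093, Pnliprp1 -0.039, Clps -0.013, Klk1 -0.31, Cuzd1 -0.040, Serpini2 -0.073 and Dmbt1 0.13. The 5 libraries lacking Eif2s3y gave Amy2a5 -0.14, Amy1 -0.10, Try10 -0.010, Pnliprp1 -0.082, Gp2 -0.0099, Klk1 -0.205, Ptf1a -0.44, Gata4 -0.019, Cuzd1 -0.065 and Dmbt1 0.0075. Leaving out both libraries numbered 1 gave Amy2b -0.26, Cel -0.19, Rbpjl -0.51, Gata4 -0.29, Cuzd1 -0.12 and Serpini2 -0.078. limma-voom gave Cel -0.012, Rbpjl -0.068, Gata4 -0.13 and Cuzd1 -0.026, and the replicate block Cel -0.021, Rbpjl -0.040, Gata4 -0.13 and Cuzd1 -0.0013. Upper-quartile normalization gave Ctrc 0.013, and library totals alone Gata4 -0.020. With a library left out, 18 members changed sign, 15 of them without NICD library 1. They were Amy2b (-0.38 to 0.46), Amy1 (-0.062 to 0.33), Cpa1 (-0.24 to 0.65), Cpb1 (-0.25 to 0.59), Cel (-0.56 to 0.54), Cela2a (-0.075 to 0.73), Ctrc (-1.48 to 0.64), Try10 (-0.069 to 0.75), Pnliprp1 (-0.35 to 0.59), Gp2 (-0.26 to 0.64), Klk1 (-0.15 to 0.50), Ptf1a (-0.055 to 0.69), Rbpjl (-0.71 to 0.57), Gata4 (-0.66 to 0.37), Cuzd1 (-0.40 to 0.36), Serpini2 (-0.31 to 0.45), Dmbt1 (-0.92 to 0.15) and Cckar (-0.63 to 0.20).

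Relative to the acinar sum, changes of sign were followed only for Amy2a5, Cela1, Cela2a, Ctrb1, Ctrc, Prss3, Pnlip, Ptf1a, Bhlha15, Rbpjl, Nr5a2, Gata4 and Dmbt1. The length offset, which left the sum itself uncorrected, gave Amy2a5 0.028, Cela1 -0.38, Ctrb1 -0.38, Pnlip -0.32 and Nr5a2 0.13. limma-voom gave Ptf1a 0.025, a sum without trypsinogens and amylases Prss3 0.036, and leaving out both libraries numbered 1 Amy2a5 0.016 and Prss3 0.031. Of the members followed, Amy2a5 (-0.16 to 0.057), Prss3 (-0.21 to 0.26), Pnlip (-0.038 to 0.11), Ptf1a (-0.32 to 0.27) and Nr5a2 (-0.31 to 0.079) changed sign with a library left out.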
